A study of Mus musculus with 2 samples.

Results

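The genes described here are 10 core genes of the circadian clock, taken as the rows of the count table that carry the symbols Per1, Per2, Per3, Cry1, Cry2, Clock, Nr1d1, Nr1d2, Bhlhe40 and Bhlhe41. All 10 were found among the 55487 rows, each once. RNA was sequenced from MC3T3-E1, an established line of osteoblastic cells that came from the skull vault of the mouse, in 1 untreated library and 1 library from cells given 10 nM parathyroid hormone (PTH), both labelled 1 h. All cells grew in medium with 10% serum and were treated 24 h after seeding at 25000 cells per cm2 in 12-well plates. The labels name no vehicle for the untreated cells and give no hour of collection, so PTH and the handling that goes with it cannot be told apart, and the phase of any rhythm in these cultures was not analysed here.

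The mammalian clock is a feedback loop of transcription. The proteins CLOCK and BMAL1 (gene Arntl) bind E-box sequences and switch on the Per and Cry genes, whose products return to the nucleus and repress CLOCK and BMAL1. A further loop runs through the nuclear receptors REV-ERB (Nr1d1 and Nr1d2), which repress Arntl, and ROR, which activate it, and the DEC proteins (Bhlhe40 and Bhlhe41) repress at E-boxes. Osteoblasts carry such a clock, and Per1 is also known as a gene that cyclic AMP and CREB can switch on within an hour. PTH acts on osteoblasts through a receptor that raises cyclic AMP.

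The libraries held 66302211 (untreated) and 70036872 (PTH) counts over genes, and 16408 rows with a total of 20 or more counts were compared. Levels are CPM, which are counts scaled to the effective library size by edgeR's TMM method, and each difference is the ratio of these levels, PTH over untreated, with a 95% exact interval that covers counting error only. PCR copies of a molecule count as separate reads, so even the counting error may be wider. A gene is said to have more or fewer reads when its whole interval lies beyond 1.5-fold. With 1 library per group no difference has a replicate check, no p-value exists, and the statements compare these libraries, not the conditions. In bulk RNA, a change in the share of cells that carry a transcript and a change in the amount per cell cannot be told apart. The osteoblast markers Runx2, Sp7, Col1a1, Alpl, Ibsp and Bglap were all measured. Col1a1 had 1935295 and 2093308 counts, while Sp7, the gene for the osteoblast transcription factor osterix, had 4583 and 1974 and so fewer reads in the PTH library, 2.39-fold lower (2.27 to 2.52). The other 5 were neither, with Ibsp at 0.774. Among them Bglap was low, at 57 and 87 counts (0.849 and 1.26 CPM). Of 20 markers of other cell types 5 reached 20 counts. The 4 chondrocyte markers summed to 418 and 562 CPM, almost all of it Col2a1, while Acan was listed at 0. The adipocyte, macrophage and osteoclast, endothelial and muscle lists of 4 markers each summed to between 0.134 and 2.36 CPM in either library, and Adipoq, Plin1, Lpl, Ptprc, Adgre1, Cdh5, Kdr and Myod1 were listed at 0 in both. For reference, 6 of 6 genes known to respond to cyclic AMP (Crem, Nr4a1, Nr4a2, Fos, Dusp1 and Rgs2) had more reads in the PTH library, at ratios from 2.21 for Nr4a1 to 50.01 for Rgs2, with a median log2 ratio of 3.12. Over all compared rows 5.39% had more reads. With an interval widened by an assumed coefficient of variation of 0.2 per library, Nr4a1 was no longer past the rule and the other 5 were, and Sp7 was no longer past it either. The 6 cyclic AMP genes were picked with their outcome known, so they are no independent check of the treatment.

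Of the 10 clock genes, 3 had more reads in the PTH library, Per1, Bhlhe41 and Cry2, none had fewer, and 7 were neither. By the same rule 5.39% of all compared rows had more reads and 3.54% had fewer. Among the 11314 rows with at least 318 counts in all, the total of the least abundant clock gene, 3.52% had more reads and 1.94% fewer. Per1 went furthest, at 3.25-fold more (3.18 to 3.33), and Per2 lay at the other end, at a ratio of 0.610 (0.538 to 0.691). The median log2 ratio of the 10 genes was 0.29, beside 0.00 over all compared rows. Their levels summed to 557 CPM untreated and 1010 CPM after PTH. Most of that gain was Per1, since the other 9 summed to 412 and 539 CPM. The spread between cultures is unknown here. With the widened interval, only Per1 of the 10 stayed beyond 1.5-fold (1.87 to 5.66). By that widened rule 2.89% of all rows had more reads and 1.63% fewer, and among rows with at least 318 counts the shares were 1.37% and 0.398%.

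**Figure D1:**
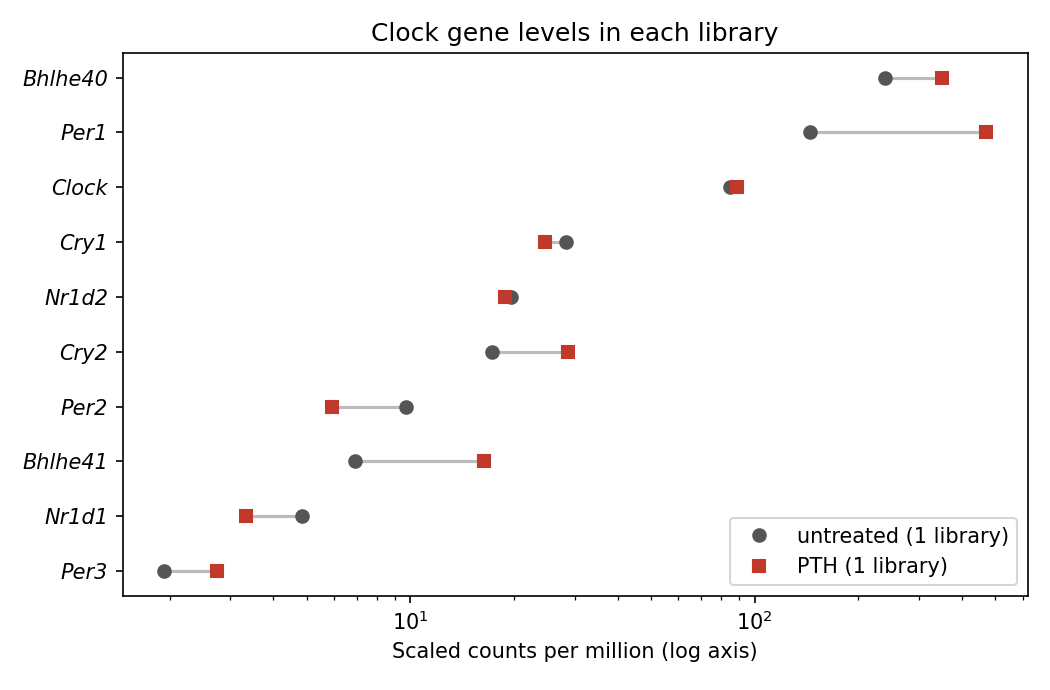
Scaled counts (CPM) of the 10 clock genes on a log axis, with 1 point for the untreated library (grey circle) and 1 for the PTH library (red square), joined per gene and ordered by the untreated level. Per1 moves from 145 to 471 and passes Bhlhe40, while Clock and Nr1d2 barely separate.

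**Figure D2:**
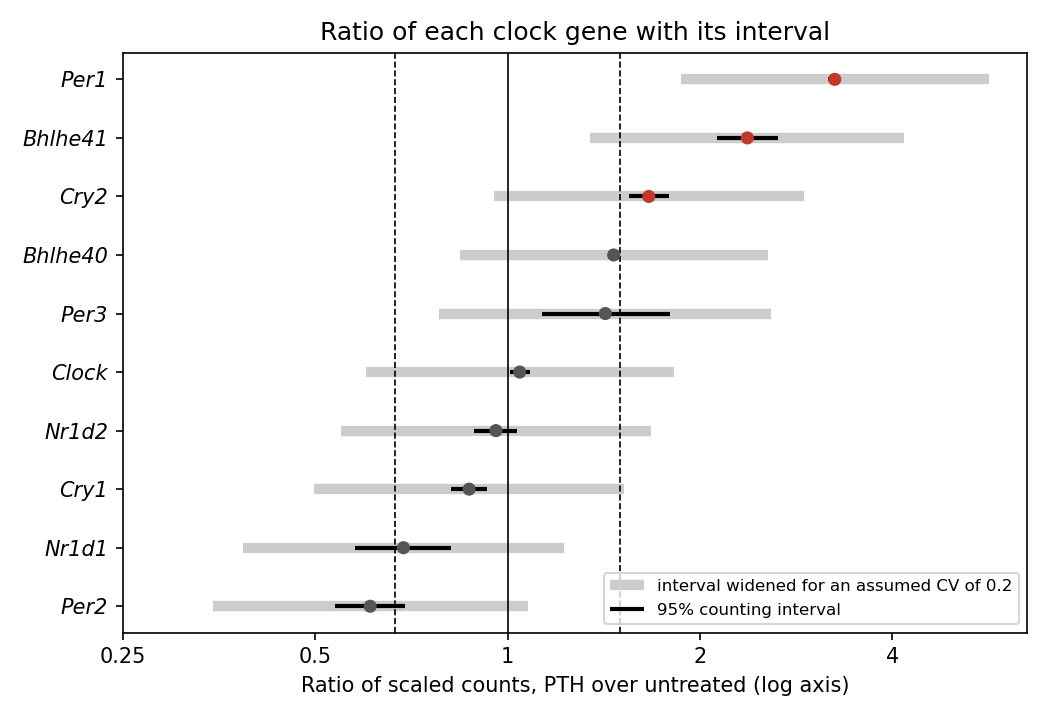
Ratio of scaled counts, PTH over untreated, on a log axis for each clock gene, with the 95% counting interval (black) and the interval widened for an assumed coefficient of variation of 0.2 (grey band). Dashed lines mark 1.5-fold in either direction, and red points (Per1, Bhlhe41 and Cry2) have a counting interval wholly beyond it.

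The 3 period genes, whose proteins form the repressor complex with the cryptochromes, differed from one another. Per1 (chr11:69095217-69109960, plus strand, GRCm38) had 9724 counts untreated and 32557 after PTH, which is 145 and 471 CPM. No other clock gene gained as many reads. By log2 ratio Per1 stood at rank 493 of 16408 compared rows, and at rank 104 of the 11314 rows with at least 318 counts. High ratios were rarer among abundant genes. Of 1258 rows with at least as many untreated counts as Per1, 5 had a ratio as high, namely Thbd (5.19), Vegfa (5.17), Tsc22d1 (3.41), Midn (3.30) and Per1 itself, a set chosen after the values were seen. A limit on untreated counts leaves out genes that were higher after PTH from a lower untreated level, such as Sik1 (4072 and 32290 counts). It thereby favours a small set. Per2 (chr1:91415982-91459324, minus strand) had 653 and 410 counts, or 9.73 and 5.93 CPM. It was thus 1.64-fold lower (1.45 to 1.86) in the PTH library, an interval that lies below no change but not wholly beyond 1.5-fold. Per3 (chr4:151003652-151044665, minus strand) had 129 and 189 counts, the fewest of the 10, and its ratio of 1.42 (1.13 to 1.79) was not past the rule. The 3 period genes together stood at 157 CPM untreated and 480 CPM after PTH. None of the 3 shares exonic bases with another annotated gene in GENCODE M21.

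RefSeq promoter windows on GRCm38.p6 were found for 8 of the 10 genes, in 11 windows, and not used here for Per2 and Bhlhe40. The windows of Per1, Cry2 and Bhlhe41 are printed because these are the genes with more reads, and that of Per3 because it holds a pair of D-boxes. Each run holds bases upstream of a RefSeq start, 5′ to 3′ on the gene's strand, ended where a GENCODE exon begins. Capitals mark a match on either strand to the core CRE TGACG (part of the cyclic AMP response element TGACGTCA), the E-box CACGTG, the D-box TTATGTAA or the nuclear receptor site AGGTCA, and the core CRE also matches inside any full CRE.
Per1, upstream start, chr11:69098699-69098947, plus strand: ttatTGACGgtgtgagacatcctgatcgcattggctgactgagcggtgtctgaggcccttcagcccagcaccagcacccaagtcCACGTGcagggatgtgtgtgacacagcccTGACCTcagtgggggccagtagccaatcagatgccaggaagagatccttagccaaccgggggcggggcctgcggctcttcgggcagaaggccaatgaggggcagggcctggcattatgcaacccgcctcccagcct
Per1, downstream start, chr11:69099902-69100151, plus strand: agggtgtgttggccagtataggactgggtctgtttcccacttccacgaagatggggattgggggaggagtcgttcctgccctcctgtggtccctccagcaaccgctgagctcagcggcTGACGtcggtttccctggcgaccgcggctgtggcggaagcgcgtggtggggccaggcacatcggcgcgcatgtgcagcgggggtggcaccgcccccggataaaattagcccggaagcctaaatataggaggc
Cry2, chr2:92434070-92434319, minus strand: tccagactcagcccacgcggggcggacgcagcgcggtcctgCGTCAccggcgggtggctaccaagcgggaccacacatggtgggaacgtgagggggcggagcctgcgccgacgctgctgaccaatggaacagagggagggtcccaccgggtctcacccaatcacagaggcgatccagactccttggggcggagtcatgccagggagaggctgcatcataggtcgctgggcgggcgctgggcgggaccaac
Bhlhe41, chr6:145865559-145865670, minus strand: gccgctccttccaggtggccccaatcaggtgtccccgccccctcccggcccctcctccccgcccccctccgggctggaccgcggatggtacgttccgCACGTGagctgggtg
Per3, chr4:151044666-151044915, minus strand: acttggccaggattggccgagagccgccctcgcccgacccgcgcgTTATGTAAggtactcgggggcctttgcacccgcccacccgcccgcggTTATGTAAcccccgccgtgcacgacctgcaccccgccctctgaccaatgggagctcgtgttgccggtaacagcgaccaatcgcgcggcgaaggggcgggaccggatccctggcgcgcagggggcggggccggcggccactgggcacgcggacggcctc

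Both Per1 windows hold a core CRE, at positions -246 to -242 before the upstream start and -132 to -128 before the downstream start. These 2 RefSeq starts lie inside the GENCODE span of Per1, which begins at chr11:69095217. The bases before that outermost start were not searched. The upstream window also holds an E-box at -166 to -161. Over the full 250 bases before each start, a core CRE lay in 4 of the 11 clock windows (both of Per1, Cry1 and Cry2) and in 17.8% of 32851 windows of all genes. An E-box lay in 3 (Per1, Cry1 and Bhlhe41) and in 6.02% of all windows, and the full CRE in none of the 11 and in 1.55% of all. The Per3 window alone held D-boxes, at -205 to -198 and -158 to -151, against 0.819% of all windows with at least 1. AGGTCA lay in 3 clock windows (Per1, Clock and Nr1d2) and in 14.02% of all. These matches describe letters in short windows, and binding was not measured. Genes with a core CRE included Per1 and Cry2, which had more reads, and Cry1, which did not. The window of Bhlhe41, which also had more reads, held no core CRE. The Cry1 match, at -8 to -4, lies in bases that GENCODE annotates as exon.

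The cryptochromes, which hold the repressor complex on CLOCK and BMAL1, changed places in read number but not in level per kilobase of exonic length. By that measure Cry1 stayed above Cry2, at 8.47 and 2.73 CPM per kilobase untreated and 7.38 and 4.54 after PTH. Cry1 (chr10:85131700-85185064, minus strand) had 1900 counts untreated and 1704 after PTH, or 28.3 and 24.7 CPM. Its ratio of 0.871 (0.815 to 0.930) lay a little below no change. Cry2 (chr2:92403646-92434043, minus strand) had 1158 and 1984 counts, or 17.3 and 28.7 CPM. The ratio was 1.66 (1.55 to 1.79), the lowest of the 3 genes past the rule, and with the widened interval it ran from 0.951 to 2.91. An RNA on the opposite strand, D930015M05Rik, covers 4.67% of the exonic bases of Cry2 and had 22 and 34 counts. The sources used here do not say whether reads were counted by strand.

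Clock, the gene for the DNA-binding partner of BMAL1, stood at nearly the same level in both libraries. It (chr5:76209868-76304792, minus strand) had 5702 and 6136 counts, or 84.9 and 88.8 CPM, a ratio of 1.05 (1.01 to 1.08). The REV-ERB genes both had ratios below 1. Nr1d1 (chr11:98767932-98775333, minus strand) had 325 and 230 counts, or 4.84 and 3.33 CPM. That was 1.46-fold lower (1.23 to 1.73) in the PTH library and not past the rule. Thra, the thyroid hormone receptor gene on the opposite strand, covers 8.55% of the exonic bases of Nr1d1 and had 7797 and 7606 counts, far more than Nr1d1 itself. Nr1d2 (chr14:18204054-18239127, minus strand) had 1313 and 1297 counts, or 19.6 and 18.8 CPM, and its interval (0.888 to 1.04) was the only one of the 10 to include 1 with TMM scaling. The interval of Clock also included 1 with total counts (0.982 to 1.06) and with upper-quartile factors (0.990 to 1.06).

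The DEC genes both had ratios above 1, and Bhlhe41 had the larger one. Bhlhe40 (chr6:108660629-108666925, plus strand), which encodes DEC1, had 16016 and 24176 counts, or 239 and 350 CPM. Its ratio of 1.47 (1.437 to 1.496) stopped just short of the rule. Bhlhe41 (chr6:145858243-145865558, minus strand), which encodes DEC2, had 462 and 1129 counts, or 6.88 and 16.3 CPM. It was 2.37-fold higher (2.13 to 2.65), at rank 199 of the 11314 rows with at least 318 counts, and with the widened interval its ratio ran from 1.35 to 4.17. The opposite-strand gene Gm43909 covers 19.0% of the exonic bases of Bhlhe41, and had 28 and 49 counts. Bhlhe40 overlaps 0610040F04Rik on the opposite strand over 2.51%, and that gene was listed at 0.

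Levels between genes were compared as CPM per kilobase of exonic length, where the length is the union of all exons in GENCODE M21. In the untreated library the order ran from Bhlhe40 at 50.7 through Per1 at 25.7, Cry1 at 8.47, Clock at 6.19, Nr1d2 at 3.62, Cry2 at 2.73, Per2 at 1.66, Nr1d1 at 1.57 and Bhlhe41 at 1.02 to Per3 at 0.20. In the PTH library Per1 led at 83.6, above Bhlhe40 at 74.3, and Cry1 and Clock followed at 7.38 and 6.47. Cry2 at 4.54 stood above Nr1d2 at 3.47, and Bhlhe41 at 2.43 stood above Nr1d1 at 1.08, Per2 at 1.01 and Per3 at 0.285. In both libraries Per2 and Nr1d1 were the only neighbours in this order whose counting intervals overlapped. These intervals leave out any error in the length used, and which transcript forms were present was not measured. Before the division by length, Clock at 84.9 CPM stood above Cry1 at 28.3 CPM untreated. Per1 alone made up 26.0% of the 10 genes' summed CPM untreated and 46.6% after PTH, while the share of Bhlhe40 went from 42.8% to 34.6% although its own CPM was higher.

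Ratios within a pair of related genes do not depend on how the libraries are scaled. Per1 gave 93.7% (93.2 to 94.2, exact binomial interval) of the Per1 and Per2 counts untreated and 98.8% (98.6 to 98.9) after PTH, an odds ratio of 5.33 (4.70 to 6.06). Against Per3 the odds ratio was 2.29 (1.81 to 2.88). Cry2 gave 37.9% (36.1 to 39.6) of the cryptochrome counts untreated and 53.8% (52.2 to 55.4) after PTH, an odds ratio of 1.91 (1.73 to 2.11). The more counted cryptochrome was thus Cry1 in the untreated library and Cry2 in the PTH library. These counts are not corrected for length, and per kilobase Cry1 stayed above Cry2 in both libraries. Bhlhe41 went from 2.80% to 4.46% of the DEC counts, an odds ratio of 1.62 (1.45 to 1.81). Nr1d1 went the other way, from 19.8% to 15.1% of the REV-ERB counts, at 0.716 (0.592 to 0.866). With intervals widened for the assumed variation, both Per1 odds ratios stayed above 1 (2.41 to 11.8 against Per2 and 1.01 to 5.17 against Per3), and the other 3 intervals included 1.

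**Figure D3:**
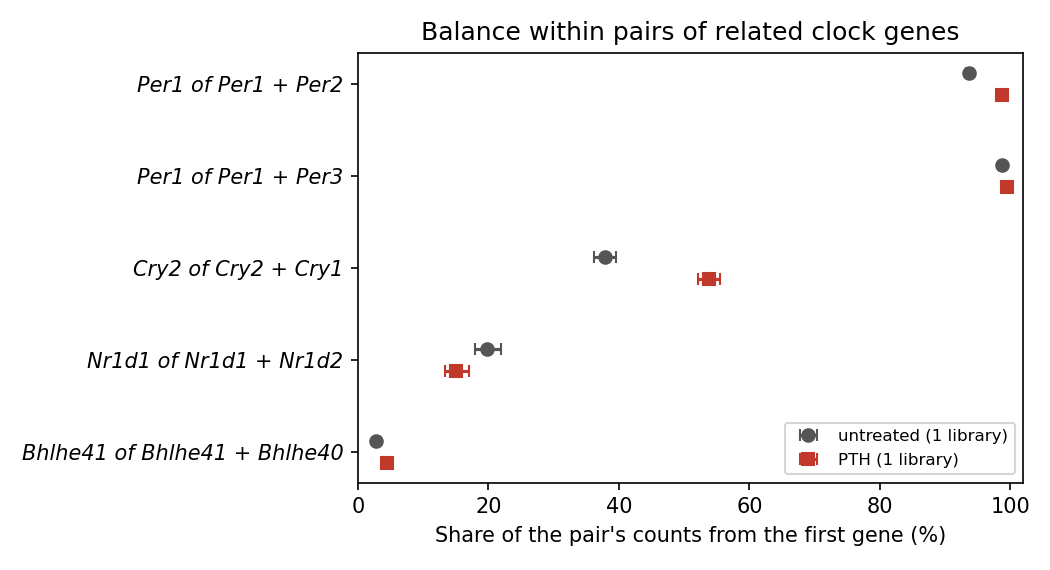
Share of each pair's raw counts that came from the gene named first, in percent, with exact binomial 95% intervals, in the untreated (grey circle) and PTH (red square) libraries. The share of Cry2 crosses from 37.9% to 53.8%, and the Per1 share of the Per1 and Per2 counts goes from 93.7% to 98.8%. Counts are not corrected for the length of the genes.

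Other genes of the clock were read from lists of known clock factors. Of the 36 such genes reported here outside the 10, 31 were measured, 3 had more reads (Rora, Nfil3 and Usp2) and 28 were neither. Over all compared rows the shares were 5.39% with more reads and 3.54% with fewer. The 31 measured genes had a median log2 ratio of 0.00, beside 0.00 over all rows. Among 5 measured loop transcription factors of 7, Rora, the ROR activator of Arntl, had 4759 and 11659 counts and was 2.38-fold higher (2.30 to 2.46). Arntl itself had 1402 and 1607 counts, a ratio of 1.11 (1.04 to 1.20). Arntl2, its paralogue, stood at 0.903, Npas2, a paralogue of Clock, at 0.924, and Ciart, a repressor of CLOCK and BMAL1, at 0.521 (0.364 to 0.736) from 97 and 52 counts. The list's median log2 ratio was -0.11. The widened interval took Rora back inside the rule.

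The bZIP factors that bind D-boxes were in part too low to read. Nfil3, the D-box repressor also called E4BP4, had 3328 and 14313 counts and was 4.18-fold higher (4.02 to 4.34). It remained past the rule with the widened interval. Tef, a D-box activator, had 1634 and 1489 counts, a ratio of 0.885, and the median log2 ratio of these 2 measured genes was 0.94. Dbp, a main output activator of the clock in most tissues, was listed at 0 in both libraries, and Hlf had 6 and 0 counts. The opposite-strand gene Sphk2 covers 18.0% of the exonic bases of Dbp, and the use of strand in counting is not given. A listed 0 is uncertain in this table, because 357 rows stood at 0 untreated with 10 or more counts after PTH, and 289 the other way round.

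Of 13 measured genes for enzymes that modify clock proteins, 1 had more reads and 12 were neither, a share close to that over all rows (5.39% with more and 3.54% with fewer). The 3 with most counts, the PER kinase Csnk1d, the kinase Gsk3b and the F-box gene Fbxw11, had ratios of 1.01, 1.05 and 0.977, and the list's median log2 ratio was -0.03. Low counts left Prkaa2, a subunit gene of AMP-activated kinase, at 1.98 (1.24 to 3.23) and the F-box gene Fbxl21 at 0.647 (0.230 to 1.72). The gene with more reads was Usp2, a deubiquitinase whose substrates include clock proteins. Its counts were 163 and 2287, which is 13.6-fold higher (11.6 to 16.1), further than any of the 10 core genes. None of 8 chromatin cofactors was past the rule. Their ratios lay between 0.850 and 1.13, with Nono at 0.990, Ncor1, the REV-ERB corepressor, at 1.03 and Kdm5a at 0.865, and the median log2 ratio was -0.01.

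The 3 measured output genes with known clock control that are reported here were neither. Of all compared rows, 5.39% had more reads and 3.54% fewer. Cdkn1a, a cell cycle inhibitor, had 7483 and 10514 counts, a ratio of 1.36 (1.32 to 1.41). Wee1, a cell cycle kinase, stood at 1.26 and Nampt, an enzyme of NAD synthesis, at 1.06, and their median log2 ratio was 0.33. Among 8 genes for CREB, its CRTC coactivators and the kinases that act on them, Sik1, which restrains the coactivators, was the one past the rule, with 4072 and 32290 counts and a ratio of 7.70 (7.45 to 7.96). The other 7 were neither. They include Creb1 at 0.889 and Prkaca at 0.945, and the list's median log2 ratio was -0.08. Prkaca has an annotated pseudogene, so its reads may be split between copies.

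**Figure D4:**
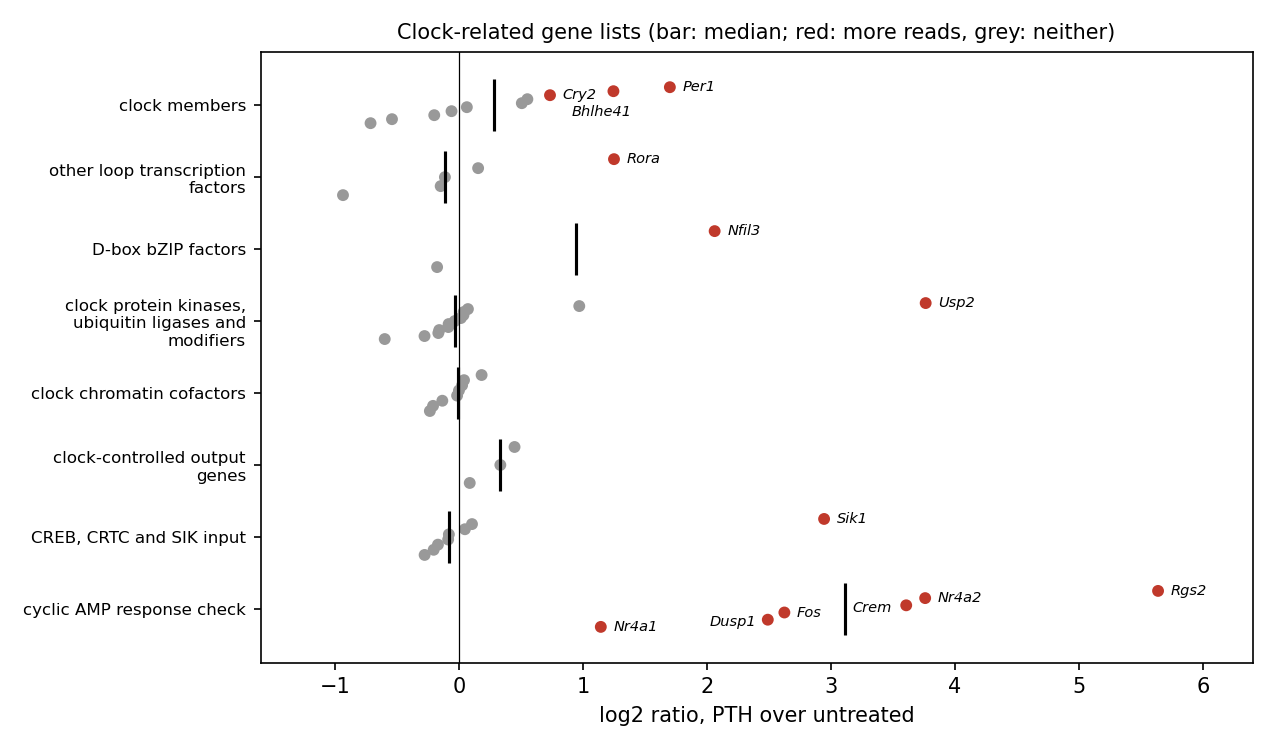
Log2 ratios, PTH over untreated, of the measured genes in each clock-related list, with 1 point per gene and a bar at the median. Red points have more reads and grey points neither, and Rora, Nfil3, Usp2 and Sik1 are each the only gene of their list past the rule.

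Rows nearest to each clock gene past the rule were found by the distance in log2 mean CPM and log2 ratio over the 2 libraries, among protein-coding genes. For Per1 they were Tsc22d1, at 10570 and 37074 counts, Nudt4 and Tacc1, at distances of 0.185, 0.342 and 0.405. Bhlhe41 stood nearest to Oscp1, Zrsr1 and Cacnb1, at distances of 0.0872, 0.116 and 0.163. Nearest to Cry2 were Rgcc, Fbxo31 and Gstp2, at 0.0869, 0.0924 and 0.114, and the last 2 were not past the rule. With 2 libraries such likeness means a similar level and a similar ratio, no more.

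**Figure D5:**
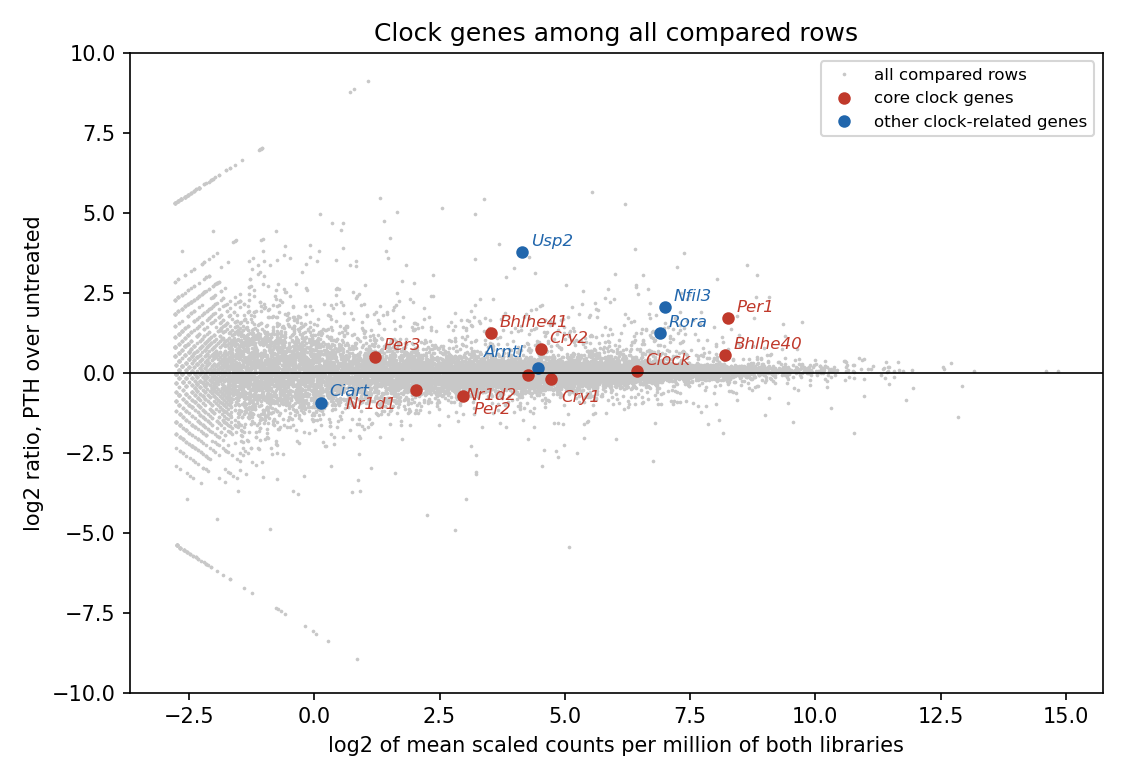
Log2 ratio, PTH over untreated, against the log2 of the mean CPM, with 1 grey dot for each of 16408 compared rows, the 10 core clock genes in red and 5 other clock-related genes in blue. Per1 sits at the upper edge of the abundant genes, and Clock, Cry1 and Nr1d2 lie in the dense band around 0.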

How the data were processed

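RNA from 2 cultures was measured. The authors deposited counts in 1 table, with a row for each gene and a column for each of the 2 libraries. Per the submitters' processing notes, HISAT2 and the mm10 build were used. The sources used here do not give the counting tool, the annotation or the use of strand. The intervals take the listed values as counts of reads. Counts were scaled by TMM in edgeR 4.0.16 (R 4.3.3) on rows with a total of at least 20. With 1 library per group the quasi-likelihood test in edgeR could not be fitted, and no p-value was computed. Ratios have 95% exact conditional (Clopper-Pearson) intervals, from scipy 1.17.1 in Python 3.11.15. For log2 ratios 0.5 count was added. Widened intervals are normal approximations on the log scale. The floor for a count of 0 is 3 counts (0.0447 CPM untreated, 0.0434 after PTH). Coordinates, exonic length and overlaps come from GENCODE M21 (GRCm38, the assembly also called mm10) with bedtools 2.31.1. Simulated data with known changes were used to test the interval and the rule. The simulated counts had counting error only, so variation between cultures and PCR copies was not covered. The text names all 10 clock genes, in each other clock list the genes past the rule and the 3 with most counts, and the 3 rows nearest to each clock gene past the rule. Other names were added after their values were seen. Of the list of output genes, 1 gene is not reported here. The genes and lists were chosen with earlier results of these data known. Alternatives were other scalings, count filters, fold limits and widened intervals.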

Additional observations from a re-analysis of the deposited data

How the results depend on the processing

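Of 257 values set against the alternatives, 231 were counted as unchanged. Ratios so counted kept their side of the rule, and counts of genes stayed within 1.5 times the reported count. For the odds ratios within pairs, unchanged means that the interval still left out 1. Bhlhe40 with total counts also kept its side but was counted as moved. Fold limits and widened intervals leave the ratios themselves as they were, and counts of 0 cannot rise at stricter settings. The 231 thus includes outcomes fixed in advance. No clock gene changed direction under total-count, DESeq2 (1.42.0) or upper-quartile scaling. These scalings moved the median log2 ratio of all rows to -0.04, 0.00 and -0.02. With total counts Bhlhe40 stood at 1.43 and Per1 at 3.17, both outside their own counting intervals. A fold limit of 2 left Per1 and Bhlhe41 past the rule, but not Cry2 (1.66). At a looser limit (a ratio of 5 to 4), Bhlhe40 (1.47) was past it too, and Per2 (0.610) became the 1 clock gene with fewer reads. At that limit 1 loop factor had fewer reads and 1 output gene more. An assumed variation of 0.1 ended the call of Cry2 (1.66), leaving 2 clock genes with more reads, and 680 and 404 of all rows with more and fewer, and 0.2 ended those of Cry2 and Bhlhe41 (2.37), leaving 1 clock gene. With 0.2, 5 of the 6 cyclic AMP genes and 0 loop factors had more reads, and the odds ratios of Cry2 to Cry1 (1.91), Nr1d1 to Nr1d2 (0.716) and Bhlhe41 to Bhlhe40 (1.62) had intervals that included 1. Without a count filter 1 output gene had fewer reads, Ppara with 8 and 0 counts. Over all rows, those with more and fewer reads numbered 884 and 581 as reported, 1386 and 983 without a filter, 543 and 307 with at least 100 counts, 517 and 262 at 2-fold, 1495 and 1213 at the looser limit, and 474 and 267 with the interval widened for 0.2. No paired analysis was possible because each group has 1 library, and no library could be left out. Depth limits Per3 most, with 318 counts in all.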
